A study of Mus musculus with 12 samples.

Results

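The genes described here are 10 members of the BCL2 family, the proteins that decide at the mitochondrial outer membrane whether a cell lives or dies. They were chosen by symbol from the 23362 genes counted in each library, and all 10 were found: the pro-survival members Bcl2, Bcl2l1 and Mcl1, the effectors Bax, Bak1 and Bok, and the BH3-only members Bid, Bcl2l11, Bbc3 and Pmaip1. Polyadenylated RNA was sequenced from C57BL/6 mouse granulocyte-macrophage progenitors (GMP), precursors of granulocytes and monocytes, in 12 libraries of 4 groups with 3 libraries each. GATA2-GMP KO and GATA2-GMP WT were GMP of Xbp1-deficient (KO) and wild-type (WT) genotype that had been sorted, transduced with GATA2, sorted again and kept in culture for 48 hours. GMP KO and GMP WT were Xbp1-deficient and wild-type GMP sorted straight into Trizol, with no culture. The stated interest of the series is which transcripts the factor XBP1 governs as GMP turn toward eosinophils. The Xbp1 allele, what drives its deletion and the age of the mice are not in the labels. Nor do they say if replicate libraries came from different mice, so the p-values measure the spread between these libraries, which may be technical. All GATA2-GMP libraries were amplified with a SMARTer kit before the TruSeq kit used for every library, so that stage, transduction, culture and library kit cannot be told apart.

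As background, the pro-survival proteins hold the effectors BAX and BAK in check, and the effectors, once free, oligomerize and open the outer membrane, which releases cytochrome c and starts the caspases. BH3-only proteins are the upstream sensors: they bind the groove of the pro-survival proteins and, in some cases, activate the effectors directly. MCL1 is needed for the survival of early myeloid progenitors, BCL-XL (the product of Bcl2l1) is known for keeping late erythroid cells and platelets alive, and BIM (Bcl2l11) is a main killer of granulocytes deprived of cytokine. XBP1 belongs to the unfolded protein response of the endoplasmic reticulum (ER), a response that in its prolonged form is known to raise BIM, PUMA (Bbc3) and NOXA (Pmaip1) and to lower BCL2 through the transcription factor CHOP (Ddit3).

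What joins the 10 genes is the BH3 motif, the short helix by which the family's members bind each other. The coding stretches of this motif are shown for 9 of them, all but Pmaip1, because the motif is the shared feature that defines the family and the roles compared below. Each was read from the NCBIM37 (mm9) genome in the annotation's coding frame, is 36 bases long, runs 5′ to 3′ on the coding strand, and has the codon of the conserved leucine and the codons of the conserved glycine (alanine in Bbc3) and aspartate in capitals.
Bcl2 (chr1:108609143-108609178, minus strand): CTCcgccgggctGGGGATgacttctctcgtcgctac
Bcl2l1 (chr2:152655424-152655459, minus strand): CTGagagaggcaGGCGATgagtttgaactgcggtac
Mcl1 (chr3:95463359-95463394, plus strand): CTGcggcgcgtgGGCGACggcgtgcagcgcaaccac
Bax (chr7:52721358-52721393, minus strand): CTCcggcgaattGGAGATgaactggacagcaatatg
Bak1 (chr17:27159467-27159502, minus strand): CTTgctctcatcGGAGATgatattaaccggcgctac
Bok (chr1:95583234-95585756, plus strand, the 36 bases joined across an intron): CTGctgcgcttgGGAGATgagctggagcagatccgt
Bid (chr6:120847298-120847333, minus strand): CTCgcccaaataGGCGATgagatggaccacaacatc
Bcl2l11 (chr2:127972886-127972921, plus strand): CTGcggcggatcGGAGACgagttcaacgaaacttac
Bbc3 (chr7:16899122-16899157, plus strand): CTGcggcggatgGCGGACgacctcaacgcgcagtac
In each of these genes the pattern (a leucine codon, any 3 codons, then a glycine or alanine codon and an aspartate codon) occurred exactly 1 time in the coding region used. The stretch lay in the coding part of 1 exon in all of them but Bok. Genes of all 3 roles are among the 9 shown.

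The libraries held 8219366 (GMP KO 3) to 33640911 (GMP KO 2) gene counts. Levels are given below in CPM (counts relative to library size) after TMM scaling over all 12 libraries, on which a single read was worth 0.0230 to 0.0896 CPM. Xbp1 itself had 99.9, 122 and 128 CPM in GATA2-GMP KO 1 to 3, against 381, 269 and 197 CPM in GATA2-GMP WT 1 to 3. In GMP it had 89.8, 55.9 and 56.8 CPM in KO 1 to 3, against 131, 133 and 153 CPM in WT 1 to 3. Every KO library thus lay below every WT library of its stage. The log2 fold changes of Xbp1 in GATA2-GMP and GMP, -1.28 (SE 0.27, adjusted p = 0.0959) and -1.06 (SE 0.21, adjusted p = 0.0919), did not pass the threshold of 0.05 with edgeR. They passed it in 4 and 3 of 13 alternative settings, DESeq2 among them (adjusted p = 0.00182 and 0.000723). Counts of the whole gene include exons outside any deleted part. The summed level of 11 eosinophil markers was 56500 to 68600 CPM in GATA2-GMP KO, 136000 to 208000 CPM in GATA2-GMP WT, 372 to 720 CPM in GMP KO and 130 to 341 CPM in GMP WT. That of 10 later neutrophil markers was 36700 to 61600 CPM in GATA2-GMP KO, 40700 to 72300 CPM in GATA2-GMP WT, 41.2 to 144 CPM in GMP KO and 23.6 to 42.7 CPM in GMP WT. That of 10 mast cell and basophil markers was 4840 to 13800 CPM over the GATA2-GMP libraries and 290 to 360 CPM over the GMP libraries. The 10 GMP markers summed to 3950 to 5010, 5200 to 6860, 22200 to 26400 and 25900 to 28400 CPM in GATA2-GMP KO, GATA2-GMP WT, GMP KO and GMP WT. Not all of them moved with the sum: in each genotype 8 were called lower and 2 higher in GATA2-GMP than in GMP. Of all genes tested 40.0% were called lower and 38.6% higher in KO, and 36.4% and 34.1% in WT. The 10 erythroid and megakaryocyte markers summed to 28.2 to 39.5 CPM in GATA2-GMP KO and 38.6 to 55.6 CPM in GATA2-GMP WT. In GMP KO and GMP WT they summed to 16.1 to 17.8 and 19.7 to 37.3 CPM. Of this list the globin genes Hba-a1, Hba-a2 and Hbb-b2 were at 0 in all libraries, and Hbb-b1 in all groups but GMP WT. In bulk RNA, fewer cells of a type and less RNA per cell cannot be told apart, and the part of these marker differences in the results below was not tested. GATA2-GMP WT 3 stood apart from the other 2 libraries of its group in Bax and Pmaip1, and results that rest on it are given with and without it.

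**Figure D1:**
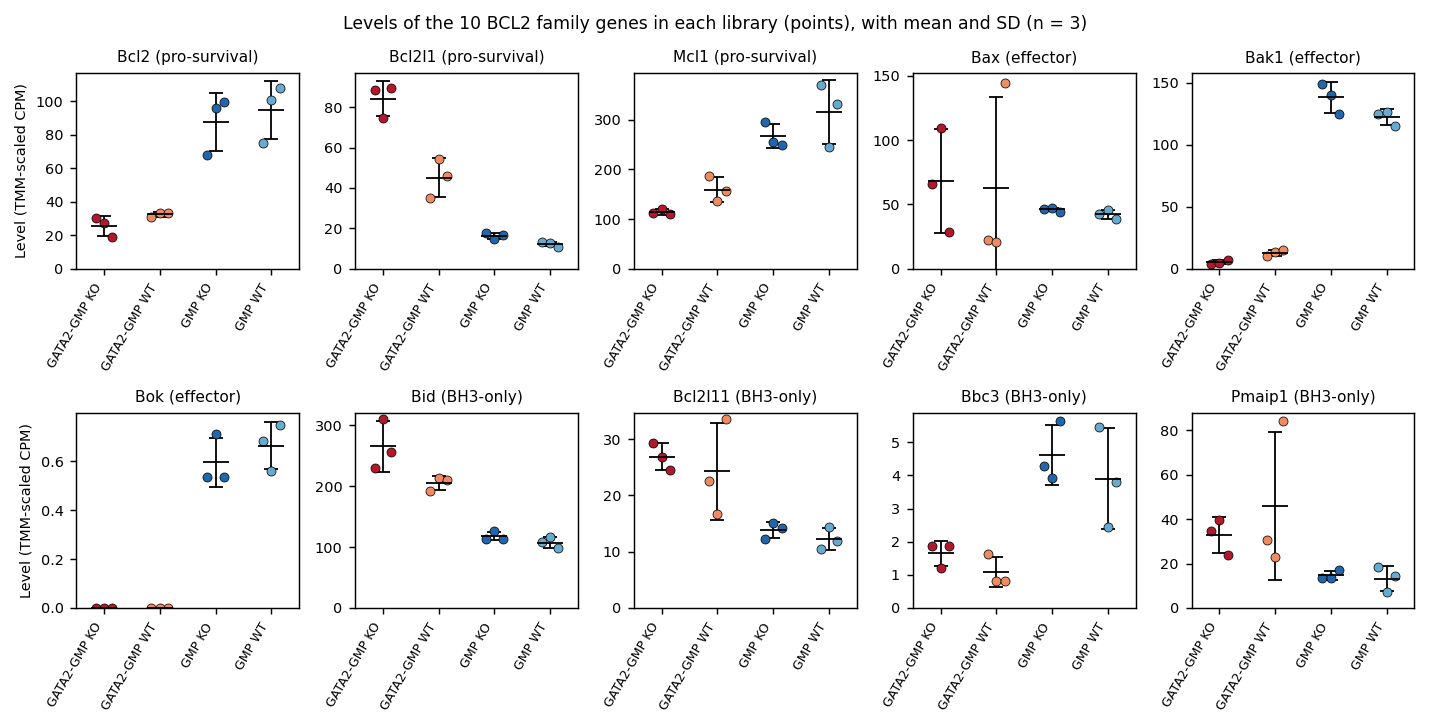
Level of each gene (TMM-scaled CPM, linear axes that start at 0) in the 3 libraries of each group, as points, with the mean and SD as bars; the SD bar of Bax in GATA2-GMP WT runs below the axis. Bak1 lies at 4.14 to 14.9 CPM in GATA2-GMP and 115 to 149 CPM in GMP, and Bcl2l1 at 35.0 to 89.6 CPM in GATA2-GMP and 10.9 to 17.6 CPM in GMP.

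The comparison of GATA2-GMP with GMP asked how the family differed between the later and the earlier stage. Within each role the members parted ways. Among pro-survival genes Bcl2l1 rose while Bcl2 and Mcl1 fell; among effectors Bak1 and Bok fell while Bax did not pass the test; and among BH3-only genes Bid, Bcl2l11 and Pmaip1 rose while Bbc3 fell. The same 4 genes rose and the same 5 fell in the WT and in the KO libraries, which are separate samples. These shares are close to those of all genes. In KO 38.6% of the 12438 genes tested rose and 40.0% fell, and in WT 34.1% of 12251 rose and 36.4% fell, so the number of members called is not a result about the family. The median log2 fold change of the 10 members was -0.32 in KO and -0.20 in WT, beside -0.06 and -0.09 over all genes tested.

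Bcl2l1 (chr2:152593052-152657464, mm9, minus strand) encodes BCL-XL, which binds BAX, BAK and several BH3-only proteins. Its level was 88.7, 74.6 and 89.6 CPM in GATA2-GMP KO and 35.0, 54.1 and 46.2 CPM in GATA2-GMP WT. Bcl2l1 had 17.6, 14.6 and 16.8 CPM in GMP KO and 13.2, 12.6 and 10.9 CPM in GMP WT. No neighbouring groups in this order overlapped. In GATA2-GMP the fitted level was 5.19-fold that of GMP in KO (log2 fold change 2.38, SE 0.15, adjusted p = 1.37e-06) and 3.70-fold in WT (1.89, SE 0.21, adjusted p = 0.000122).

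Bcl2 (chr1:108434755-108610851, mm9, minus strand), the founding member of the family, had 30.5, 27.1 and 18.8 CPM in GATA2-GMP KO and 30.6, 33.6 and 33.2 CPM in GATA2-GMP WT. Bcl2 had 68.1, 95.8 and 99.6 CPM in GMP KO and 75.2, 101.04 and 108.2 CPM in GMP WT. All 6 GATA2-GMP libraries lay below all 6 GMP libraries. The gene was 3.42-fold lower in GATA2-GMP than in GMP among KO libraries (log2 fold change -1.78, SE 0.22, adjusted p = 7.95e-05) and 2.90-fold lower among WT libraries (-1.54, SE 0.18, adjusted p = 0.000152). Exons of Bcl2 overlap those of a gene on the opposite strand, and whether the authors' counting used strand is not stated in the sources used here.

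Mcl1 (chr3:95462643-95467099, mm9, plus strand) encodes a short-lived protein that binds BAK, BIM and NOXA. It had 112.8, 121 and 109 CPM in GATA2-GMP KO and 186, 135.5 and 157 CPM in GATA2-GMP WT. Mcl1 had 296, 255 and 250.2 CPM in GMP KO and 371, 245 and 332 CPM in GMP WT. The GATA2-GMP libraries were again all lower than the GMP libraries, by 2.32-fold in KO (log2 fold change -1.22, SE 0.13, adjusted p = 3.18e-05) and 1.97-fold in WT (-0.98, SE 0.21, adjusted p = 0.00341).

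Bak1 (chr17:27156755-27165954, mm9, minus strand) encodes BAK, the effector that sits in the outer membrane before any death signal. Its level was 4.14, 4.22 and 7.21 CPM in GATA2-GMP KO and 10.2, 13.7 and 14.9 CPM in GATA2-GMP WT. Bak1 had 149, 139.8 and 125 CPM in GMP KO and 125, 127 and 115 CPM in GMP WT. The stages were separated by a wide gap, and within GATA2-GMP the KO libraries all lay below the WT libraries. Bak1 was 26.6-fold lower in GATA2-GMP than in GMP among KO libraries (log2 fold change -4.74, SE 0.24, adjusted p = 4.76e-07) and 9.38-fold lower among WT libraries (-3.23, SE 0.19, adjusted p = 7.41e-06). Its exons overlap those of Ggnbp1 on the opposite strand, which had 2 to 82 counts per library.

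Bok (chr1:95582271-95592339, mm9, plus strand) encodes an effector-like protein that the pro-survival members do not hold back well. It had 0 counts in each of the 6 GATA2-GMP libraries, against 15, 31 and 6 counts in GMP KO and 16, 14 and 15 counts in GMP WT. It was thus near the limit of detection in GMP and not detected in GATA2-GMP at this depth. Taking a floor of 3 counts over the 3 libraries of a group, its level was at least 9.66-fold lower in GATA2-GMP KO than in GMP KO and at least 10.1-fold lower in GATA2-GMP WT than in GMP WT, limits that cover counting error only.

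Bax (chr7:52717065-52722268, mm9, minus strand) encodes the effector that moves from the cytosol to the membrane. It had 66.0, 109.6 and 28.5 CPM in GATA2-GMP KO and 22.5, 20.4 and 144 CPM in GATA2-GMP WT. Bax had 46.6, 47.2 and 44.3 CPM in GMP KO and 42.5, 45.7 and 38.4 CPM in GMP WT. The GMP libraries lay close together, whereas the GATA2-GMP libraries of each genotype spread over both sides of them, and no groups were separated. The log2 fold change of Bax between the stages was 0.57 in KO (95% interval -0.30 to 1.45, adjusted p = 0.198) and 0.57 in WT (-1.04 to 2.19, adjusted p = 0.482). Without GATA2-GMP WT 3 it turned to -0.88 in WT (adjusted p = 0.000491), and without GATA2-GMP KO 3 it was 0.91 in KO (adjusted p = 0.000901), so the direction in WT is decided by 1 library. Records aligned to more than 1 place made up 48.4, 48.1 and 55.0% of the records in GATA2-GMP KO 1 to 3 and 49.1, 52.3 and 40.3% in GATA2-GMP WT 1 to 3; their part in the spread of Bax was not tested.

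Bid (chr6:120841948-120866871, mm9, minus strand) encodes the BH3-only protein that caspase-8 cleaves, which links death receptors to the mitochondrion. Its level was 229, 310.5 and 256 CPM in GATA2-GMP KO and 192, 213 and 211 CPM in GATA2-GMP WT. Bid had 114, 127 and 114 CPM in GMP KO and 108, 116 and 98.0 CPM in GMP WT. Every GATA2-GMP library exceeded every GMP library, by a fitted 2.26-fold in KO (log2 fold change 1.18, SE 0.15, adjusted p = 9.27e-05) and 1.92-fold in WT (0.94, SE 0.15, adjusted p = 0.000665). Its exons overlap those of Bcl2l13 on the opposite strand, which averaged 39.3 ± 6.83 and 41.1 ± 3.66 CPM in GATA2-GMP KO and WT and 124 ± 7.55 and 117 ± 2.74 CPM in GMP KO and WT (SD, n = 3 each), the opposite order of stages.

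Bcl2l11 (chr2:127951774-127988283, mm9, plus strand) encodes BIM, which binds all pro-survival members. It had 29.3, 26.9 and 24.6 CPM in GATA2-GMP KO and 22.5, 16.7 and 33.6 CPM in GATA2-GMP WT. Bcl2l11 had 12.3, 15.1 and 14.2 CPM in GMP KO and 10.6, 14.5 and 11.8 CPM in GMP WT. The stages did not overlap in either genotype, and the log2 fold change was 0.96 in KO (SE 0.15, adjusted p = 0.000354) and 0.99 in WT (SE 0.28, adjusted p = 0.0137). In WT the call was lost without GMP WT 1 (adjusted p = 0.0606) or without GMP WT 3 (adjusted p = 0.0539).

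Pmaip1 encodes NOXA, which binds chiefly MCL1. Its level was 34.5, 39.7 and 23.9 CPM in GATA2-GMP KO and 30.7, 23.0 and 84.0 CPM in GATA2-GMP WT. Pmaip1 had 13.5, 13.4 and 16.9 CPM in GMP KO and 18.4, 6.98 and 14.3 CPM in GMP WT. GATA2-GMP WT 3 was the highest library here as it was for Bax. The log2 fold change between the stages was 1.18 in KO (SE 0.21, adjusted p = 0.000725) and 1.80 in WT (SE 0.54, adjusted p = 0.0175). Without GATA2-GMP WT 3 the WT value was 1.12 (adjusted p = 0.0252), and without GMP WT 2 the call was lost (adjusted p = 0.0518).

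Bbc3 (chr7:16894965-16903554, mm9, plus strand) encodes PUMA, a target of p53 that binds all pro-survival members. It had 32, 19 and 25 counts (1.87, 1.22 and 1.88 CPM) in GATA2-GMP KO and 21, 13 and 14 counts (1.62, 0.816 and 0.816 CPM) in GATA2-GMP WT. Bbc3 had 120, 170 and 63 counts (4.29, 3.91 and 5.64 CPM) in GMP KO and 128, 61 and 76 counts (5.47, 2.43 and 3.799 CPM) in GMP WT. Alone among the BH3-only members here, it was lower in every GATA2-GMP library than in every GMP library. The log2 fold change was -1.45 in KO (SE 0.31, adjusted p = 0.00187) and -1.85 in WT (SE 0.45, adjusted p = 0.00672).

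Scaling bore on the stage comparison more than on any other. With library totals in place of TMM, the median log2 fold change of all genes moved to -0.73 in KO and -0.93 in WT. The genes called then split into 3273 higher and 6681 lower in KO, beside 4801 and 4976 with TMM, and into 2501 higher and 6816 lower in WT, beside 4176 and 4462 with TMM. On that scale Bcl2l1 still rose, by 1.69 in KO (adjusted p = 1.33e-05) and 1.06 in WT (adjusted p = 0.00288) on the log2 scale, and Bcl2, Mcl1, Bak1, Bok and Bbc3 still fell in both genotypes. Bid had a log2 fold change of 0.50 in KO (adjusted p = 0.0185) and 0.11 in WT (adjusted p = 0.554). For Bcl2l11 it was 0.29 in KO (adjusted p = 0.164) and 0.16 in WT (adjusted p = 0.638), and for Pmaip1 0.51 in KO (adjusted p = 0.0872) and 0.999 in WT (adjusted p = 0.135). Each of these lies above the median of all genes on that scale, so the rise of Bid, Bcl2l11 and Pmaip1 is a rise relative to other genes.

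**Figure D2:**
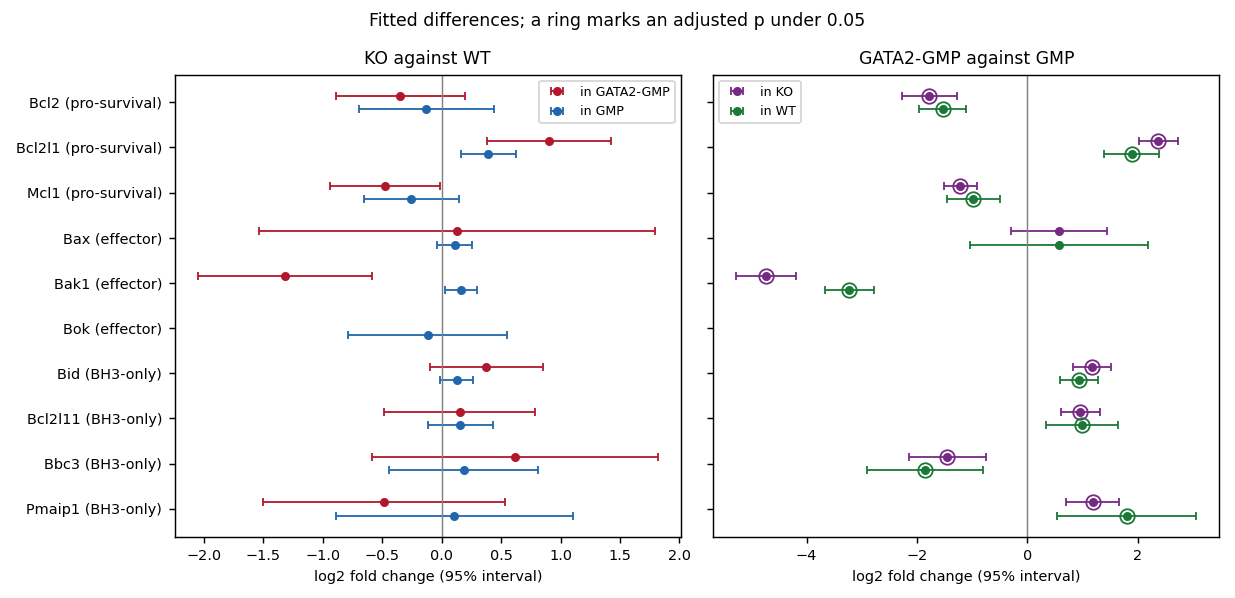
Fitted log2 fold changes of the members with 95% intervals, KO against WT within each stage (left) and GATA2-GMP against GMP within each genotype (right); a ring marks an adjusted p under 0.05. No point is ringed on the left, where Bcl2l1 lies above 0 in both stages and Bak1 lies at -1.32 in GATA2-GMP and 0.16 in GMP; Bok, at 0 in GATA2-GMP, is drawn for GMP only.

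The genotype comparison in GATA2-GMP asked what differed between KO and WT in GMP that had been transduced with GATA2 and cultured. In the KO libraries Bcl2l1 and Bid lay above every WT library and Bcl2, Mcl1 and Bak1 lay below every WT library, while Bax, Bcl2l11, Bbc3 and Pmaip1 overlapped and Bok was at 0 throughout. These are 2 members above and 3 below, where 10.2% of the 11699 genes tested had every KO library above every WT library and 12.3% had every one below. None of the 9 members tested passed the threshold with edgeR, where 0.103% of the genes tested rose and 0.274% fell. With edgeR 3 members, Bcl2l1, Mcl1 and Bak1, had an unadjusted p under 0.05. The share of all genes with such an unadjusted p was not counted, so this count and those like it below have no background. DESeq2 called 2 of the 9 members, Bcl2l1 higher and Bak1 lower. It called 2.23% of the 11698 genes with an adjusted p higher and 2.62% lower. Bcl2l1 averaged 84.3 ± 8.44 CPM in GATA2-GMP KO and 45.1 ± 9.61 CPM in GATA2-GMP WT (SD, n = 3 each), a fitted 1.87-fold difference (log2 fold change 0.91, SE 0.23, adjusted p = 0.129 with edgeR and 0.0106 with DESeq2). Bak1 averaged 5.19 ± 1.75 CPM in GATA2-GMP KO and 12.9 ± 2.44 CPM in GATA2-GMP WT and was a fitted 2.49-fold lower in KO (log2 fold change -1.32, SE 0.33, adjusted p = 0.129 with edgeR and 0.0109 with DESeq2). Over 13 alternative settings, DESeq2 among them, the adjusted p of Bcl2l1 ran from 0.00752 to 0.495 and that of Bak1 from 0.00398 to 0.480, with the same direction in each.

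Mcl1 averaged 114 ± 6.07 CPM in GATA2-GMP KO and 159 ± 25.5 CPM in GATA2-GMP WT, for a log2 fold change of -0.48 (95% interval -0.94 to -0.01, adjusted p = 0.325). For Bcl2 the log2 fold change was -0.35 (-0.89 to 0.20, adjusted p = 0.549) and for Bid 0.37 (-0.10 to 0.85, adjusted p = 0.452). The BH3-only genes that CHOP and p53 are known to raise had wide intervals: Bcl2l11 had a log2 fold change of 0.15 (-0.48 to 0.79), Bbc3 0.62 (-0.58 to 1.82) and Pmaip1 -0.49 (-1.50 to 0.53). Without GATA2-GMP WT 3 the log2 fold change of Pmaip1 turned to 0.29 (adjusted p = 0.568) and that of Bax was 1.67 (adjusted p = 0.0659), beside 0.13 with all libraries.

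The same comparison was made in freshly sorted GMP. Bcl2l1 was the 1 member with all KO libraries above all WT libraries, as 11.3% of the 12002 genes tested were, and no member had them all below, as 8.09% were. Bcl2l1 stood at 16.4 ± 1.54 CPM in GMP KO and 12.2 ± 1.20 CPM in GMP WT (SD, n = 3 each). No member passed the threshold with edgeR, where 0.658% of the genes tested rose and 2.52% fell. With edgeR 2 members, Bcl2l1 and Bak1, had an unadjusted p under 0.05 (share over all genes not counted). DESeq2 called 0 members, where it called 1.07% of the 11536 genes with an adjusted p higher and 3.18% lower. Bcl2l1 was 1.31-fold higher in GMP KO (log2 fold change 0.39, SE 0.11, adjusted p = 0.0780). It passed when the replicate number was a block, as the pairing of these libraries by number allows (0.38, adjusted p = 0.0179), and without GMP KO 2 (0.49, adjusted p = 0.0310), and its adjusted p over the 13 settings ran from 0.0179 to 1.

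Bak1, which lay lower in KO than in WT among GATA2-GMP, had in GMP a log2 fold change of 0.16 (SE 0.06, 95% interval 0.03 to 0.30, adjusted p = 0.235). For Mcl1 it was -0.26 (adjusted p = 0.542), and -0.41 without GMP WT 2 (adjusted p = 0.0129), the library that lay lowest of the WT group. The 4 BH3-only members had log2 fold changes of 0.11 to 0.18, none of them called; without GMP WT 2 the sign turned for Bbc3 (-0.08) and Pmaip1 (-0.21). Bcl2, Bax and Bok had values of -0.13, 0.11 and -0.12. The 95% intervals were narrow for Bax (-0.04 to 0.26) and Bid (-0.02 to 0.27) and wider for Bbc3 (-0.44 to 0.81) and Pmaip1 (-0.89 to 1.10).

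Whether the genotype difference itself differed between GATA2-GMP and GMP was tested over all 12 libraries. Among the 12803 genes tested, 0.0312% were called with a more positive difference in GATA2-GMP and 0.0547% with a more negative one, and no member was among them with edgeR. Bak1 came nearest: its log2 fold change for KO against WT was -1.32 in GATA2-GMP and 0.16 in GMP, a difference of -1.51 (SE 0.29, adjusted p = 0.0622). It was called in 4 of 18 alternative settings, among them DESeq2 (adjusted p = 0.000119), which called 1.88% of 12796 genes with a more positive difference and 4.33% with a more negative one. Of the 12 fits with a library left out it was called in 2, without GATA2-GMP WT 3 (-1.40, adjusted p = 0.0135) and without GATA2-GMP KO 3 (-1.81, adjusted p = 0.0299), and its adjusted p over the settings reached 0.291, with the replicate block. For Bcl2l1 the difference was 0.49 (SE 0.25, adjusted p = 0.385), and the other 7 members for which it could be fitted had an unadjusted p above 0.05. Bok, with no reads at the later stage, allowed no such fit.

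Levels per kilobase of exon (CPM per kb, over the union of each gene's annotated exons) put the members on 1 scale. In GMP of both genotypes Mcl1 ranked first, at 76.6 CPM per kb in GMP KO and 90.7 CPM per kb in GMP WT, followed by Bak1 (57.4 and 50.8), Bax (34.4 and 31.5) and Bid (33.3 and 30.2). In GATA2-GMP of both genotypes Bid ranked first, at 74.8 CPM per kb in KO and 57.8 CPM per kb in WT, followed by Bax (50.8 and 46.6) and Mcl1 (32.8 and 45.7). Without GATA2-GMP WT 3, Bax had 16.02 CPM per kb in GATA2-GMP WT and took the third place, after Mcl1 at 46.2 CPM per kb. Bak1 took the eighth place in GATA2-GMP KO, at 2.16 CPM per kb, and the sixth in GATA2-GMP WT, at 5.38 CPM per kb. Among the pro-survival genes the order of Bcl2 and Bcl2l1 was turned round: Bcl2l1 and Bcl2 had 17.8 and 3.54 CPM per kb in GATA2-GMP KO and 9.52 and 4.52 CPM per kb in GATA2-GMP WT, against 3.46 and 12.2 CPM per kb in GMP KO and 2.58 and 13.2 CPM per kb in GMP WT.

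**Figure D3:**
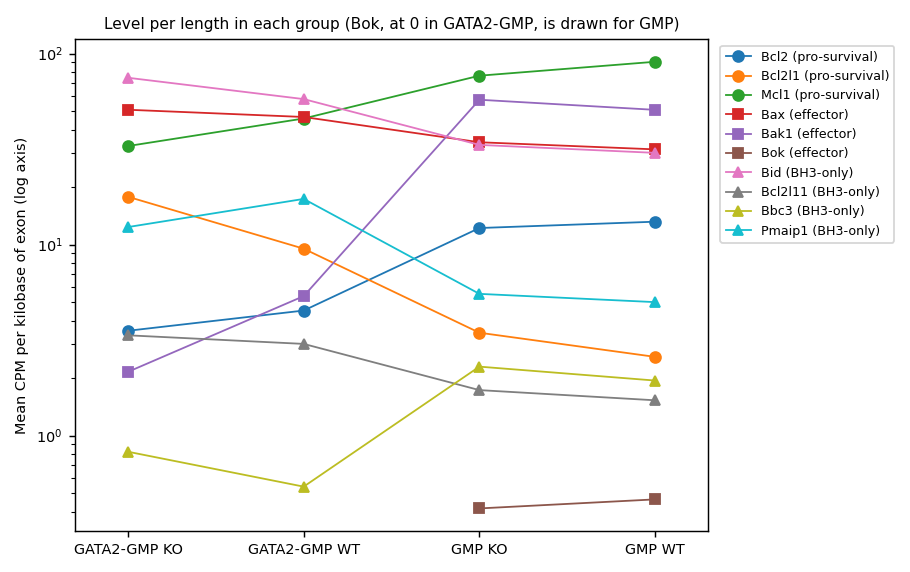
Mean level per kilobase of exon in each group on a log axis, with circles for pro-survival, squares for effector and triangles for BH3-only genes; lines join the same gene. Bak1 drops to 2.16 and 5.38 CPM per kb in GATA2-GMP KO and WT, against 57.4 and 50.8 in GMP KO and WT, and Bcl2l1 and Bcl2 cross between the stages.

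The roles were set against each other within each library as the mean log2 CPM of the 3 pro-survival genes minus that of another role, a description with no test. Against the 4 BH3-only genes this difference was 1.37, 1.28 and 1.28 in GATA2-GMP KO, 1.42, 1.92 and 1.20 in GATA2-GMP WT, 2.06, 1.99 and 1.91 in GMP KO and 1.96, 2.37 and 2.20 in GMP WT. By this measure the listed pro-survival and BH3-only transcripts lay closer together in GATA2-GMP than in GMP, though GATA2-GMP WT 2 reached the range of the GMP KO libraries. The measure leaves out the pro-survival genes Bcl2a1a and Bcl2a1b, which rose with the stage, as given below. Against Bax and Bak1 the difference was 2.01, 1.52 and 1.98 in GATA2-GMP KO and 1.94, 1.90 and 0.42 in GATA2-GMP WT. It was -0.24, -0.19 and 0.01 in GMP KO and -0.02, -0.16 and 0.14 in GMP WT. All GATA2-GMP libraries lay above all GMP libraries on this measure, and GATA2-GMP WT 3, where Bax was high, lay nearest to them. With Bok as a further effector the means were 4.33 ± 0.19 in GATA2-GMP KO, 4.04 ± 0.57 in GATA2-GMP WT, 2.15 ± 0.14 in GMP KO and 2.17 ± 0.06 in GMP WT (SD, n = 3 each), values that depend on the prior count of 2 since Bok was at 0 in GATA2-GMP.

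**Figure D4:**
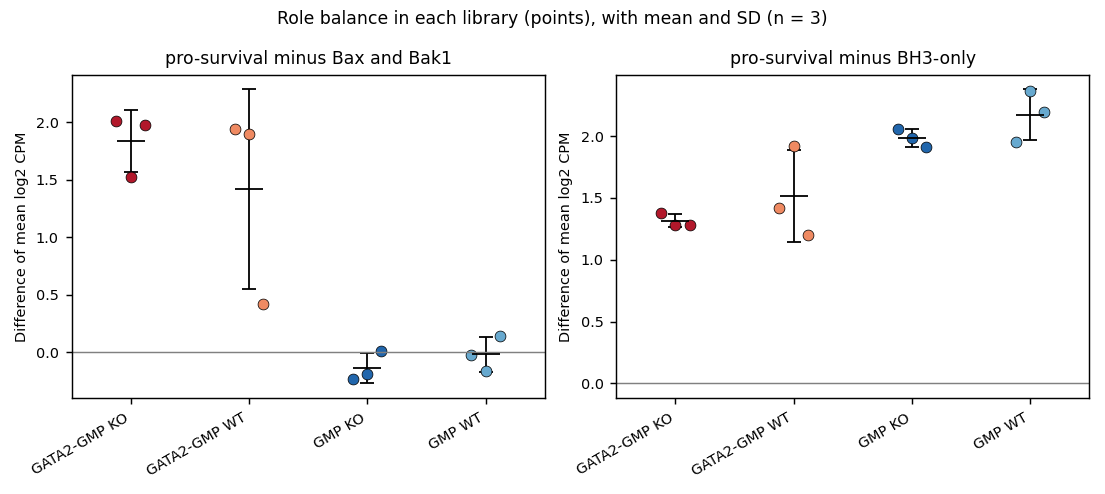
Mean log2 CPM of Bcl2, Bcl2l1 and Mcl1 minus that of Bax and Bak1 (left) and minus that of Bid, Bcl2l11, Bbc3 and Pmaip1 (right) in each library, as points, with the mean and SD of each group; the grey line marks 0. On the left the GATA2-GMP libraries lie at 0.42 to 2.01 and the GMP libraries at -0.24 to 0.14; on the right the groups average 1.31, 1.51, 1.98 and 2.17 from left to right.

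Medians by role followed the same split by stage. Between GATA2-GMP and GMP the median log2 fold change of the pro-survival genes was -1.22 in KO and -0.98 in WT. That of the BH3-only genes was 1.07 in KO and 0.97 in WT. For the effectors, Bok included, it was -4.74 in KO and -3.23 in WT, which are the values of Bak1 itself. Bak1 was the middle gene only because Bok, at 0 in GATA2-GMP, ranked below it, so these medians describe Bak1 alone. Between KO and WT in GATA2-GMP the medians were -0.35 for pro-survival genes, -0.59 for Bax and Bak1, and 0.26 for BH3-only genes. In GMP they were -0.13, 0.11 (Bok included) and 0.14 in the same order of roles. Without GATA2-GMP WT 3 the GATA2-GMP values were -0.33, 0.23 and 0.42, so the sign for the effectors is decided by 1 library. Each rests on 2 to 4 genes, and the median of all genes tested was between -0.01 and 0.01 in the genotype comparisons.

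Of 16 further BCL2 family genes, 14 were tested between GATA2-GMP and GMP in KO, where 9 rose and 3 fell, and 13 in WT, where 8 rose and 3 fell. Over all genes tested, 38.6% rose and 40.0% fell in KO, and 34.1% rose and 36.4% fell in WT. Only 8 of the 16 passed the count filter within GMP, against 12 within GATA2-GMP. Genes nearly without reads in GMP, such as Bcl2a1a and Bik, entered the stage test through GATA2-GMP alone and could only rise. The number that rose is therefore not a result about the family. Bcl2a1b, a pro-survival gene of the A1 group, had 71.9, 71.4 and 145 CPM in GATA2-GMP KO and 47.3, 40.3 and 30.8 CPM in GATA2-GMP WT, against at most 0.464 CPM in any GMP library. Its log2 fold change was 7.96 in KO (adjusted p = 6.43e-07) and 7.12 in WT (adjusted p = 2.53e-06). Bcl2a1a had 1395 counts in GATA2-GMP KO and 779 counts in GATA2-GMP WT over 3 libraries each, against 2 counts in GMP KO and 5 counts in GMP WT. The A1 genes are nearly identical copies, so how their reads were shared out is uncertain. The BH3-only gene Bik rose in WT (adjusted p = 0.000250), with 189 counts over the 3 libraries of GATA2-GMP WT, against 4 counts in GMP WT. In KO it had 114 counts in GATA2-GMP, against 3 counts in GMP, and DESeq2 called it by stage there as well. Bnip3, a mitophagy gene related to the BH3-only group, was the list's only call by genotype: in GATA2-GMP it had 389, 176 and 760 CPM in KO, against 51.5, 75.1 and 43.0 CPM in WT. The log2 fold change of Bnip3 was 2.97 (SE 0.50, adjusted p = 0.04999), past the threshold in 8 of 13 alternative settings and lost without GATA2-GMP KO 1, KO 3, WT 1 or WT 2 (adjusted p from 0.0816 to 0.258). DESeq2 called 3 of the list higher in KO at this stage, Bnip3, Bcl2a1b and Bnip3l, where it called 2.23% of all genes with an adjusted p higher. In GMP KO and WT Bnip3 averaged 4.95 ± 0.39 and 5.03 ± 0.90 CPM (SD, n = 3 each).

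Downstream of the mitochondrion, the 17 genes of the apoptosome and caspases split into 7 that rose and 5 that fell in KO and 7 that rose and 4 that fell in WT between GATA2-GMP and GMP. Beside this list and those that follow, 38.6% of all genes tested rose and 40.0% fell in KO. In WT 34.1% rose and 36.4% fell. Casp6, an executioner caspase, rose by 3.498 in KO (adjusted p = 4.78e-06) and 3.47 in WT (adjusted p = 9.76e-06) on the log2 scale, and Cycs, cytochrome c, by 2.06 and 2.15. Htra2, a mitochondrial protease that binds inhibitors of apoptosis, fell by 2.93 in KO and fell by 2.68 in WT. Parp1, a caspase substrate, fell by 2.32 in KO and fell by 2.55 in WT. None of the 17 was called by genotype at either stage with edgeR or DESeq2. With edgeR 1 in GATA2-GMP and 2 in GMP had an unadjusted p under 0.05 (share over all genes not counted). Of the 9 inhibitors of apoptosis 3 rose in each genotype, led by Birc5, survivin, a protein of mitosis as well, by 1.89 in KO (adjusted p = 1.36e-05) and 2.45 in WT (adjusted p = 5.60e-05). Birc3 rose by 1.79 in KO and 1.14 in WT. None of the 9 fell in WT, and in KO Xiap fell by 0.67 (adjusted p = 0.00179). By genotype neither tool called any of these or of the death receptor genes at either stage. With edgeR 2 inhibitors of apoptosis in GATA2-GMP, and 1 gene of each list in GMP, had an unadjusted p under 0.05 (share not counted). Among the 9 death receptor genes 3 rose in each genotype, and 5 fell in KO and 4 in WT. Fas, the receptor whose signal reaches the mitochondrion through BID, had 88.1, 80.2 and 129.6 CPM in GATA2-GMP KO and 94.3, 79.8 and 59.3 CPM in GATA2-GMP WT, against at most 1.16 CPM in any GMP library. Its log2 fold change was 6.78 in KO and 6.52 in WT, while the TNF receptor Tnfrsf1a fell by 2.24 in KO and fell by 2.70 in WT.

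Upstream, 16 genes of the p53 pathway were tested, of which 10 rose and 4 fell in KO and 11 rose and 4 fell in WT between GATA2-GMP and GMP. The shares of all genes tested were 38.6% higher and 40.0% lower in KO and 34.1% higher and 36.4% lower in WT. Trp53 itself had 388, 407 and 321 CPM in GATA2-GMP KO and 218, 220.1 and 339 CPM in GATA2-GMP WT, against 161, 152 and 152 CPM in GMP KO and 147, 141 and 157 CPM in GMP WT. The stage log2 fold change of Trp53 was 1.27 in KO (adjusted p = 3.50e-05) and 0.81 in WT (adjusted p = 0.00847, and -0.01 with library totals). Its genotype log2 fold change was 0.52 in GATA2-GMP (adjusted p = 0.370) and 0.05 in GMP (adjusted p = 0.768). In GATA2-GMP that value ran from 0.41 to 0.76 with 1 library left out. Over all 12 libraries the genotype difference between the stages was 0.46 (adjusted p = 0.420). Without GATA2-GMP WT 3 it was 0.70 (adjusted p = 0.0303), in a fit that called 1179 genes. The p53 target Cdkn1a, the cell cycle inhibitor p21, rose by 3.38 in KO (adjusted p = 6.87e-07) and 3.64 in WT (adjusted p = 5.70e-06) with the stage. Perp rose by 5.81 and 6.19, whereas the p53 target Bbc3 fell, as given above. By genotype, Gtse1 was the list's only call, in GMP (log2 fold change 0.32, adjusted p = 0.0441), past the threshold in 6 of 13 alternative settings and, of the fits with 1 GMP library left out, in that without KO 2. DESeq2 called Phlda3 lower in GATA2-GMP KO, where it called 2.62% of all genes with an adjusted p lower.

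Among 20 regulators of BCL2 proteins, 7 rose and 9 fell in KO and 9 rose and 9 fell in WT with the stage. Of all genes tested 38.6% rose and 40.0% fell in KO, and 34.1% rose and 36.4% fell in WT. Ddit3, which encodes CHOP, had 273, 252 and 356 CPM in GATA2-GMP KO and 53.2, 156 and 81.7 CPM in GATA2-GMP WT, against 9.08, 9.84 and 10.6 CPM in GMP KO and 9.70, 8.18 and 12.2 CPM in GMP WT. The genotypes of GATA2-GMP did not overlap in Ddit3. Its log2 fold change by genotype was 1.60 there (SE 0.37, adjusted p = 0.121 with edgeR and 0.00164 with DESeq2) and -0.05 in GMP (adjusted p = 0.908). Between the stages Ddit3 rose by 4.91 in KO (adjusted p = 1.88e-07) and 3.28 in WT (adjusted p = 0.000206). Foxo3 is a transcription factor known to drive Bcl2l11 and Bbc3 in blood cells. It had 0.150 to 0.704 CPM in GATA2-GMP KO and 0.291 to 1.76 CPM in GATA2-GMP WT, against 24.3 to 26.9 CPM in GMP KO and 23.6 to 26.6 CPM in GMP WT. It fell by 6.00 in KO (adjusted p = 9.29e-07) and fell by 4.95 in WT (adjusted p = 0.000137). In GMP the genotype calls of this list were Trib3, a pseudokinase induced by CHOP, with 85 counts in GMP KO and 11 counts in GMP WT over 3 libraries each (log2 fold change 2.69, adjusted p = 0.0226), and Usp9x, a deubiquitinase that stabilizes MCL1. Usp9x had 128 ± 9.18 CPM in GMP KO and 151 ± 3.23 CPM in GMP WT (log2 fold change -0.26, adjusted p = 0.0274). The call of Trib3 was lost without GMP KO 3, WT 1, WT 2 or WT 3 (adjusted p up to 0.103), and that of Usp9x in each fit with 1 library left out but that without KO 2 (up to 0.122). DESeq2 called Usp9x lower and Pim1 higher in GMP KO, and gave Trib3 no adjusted p. Of all genes with an adjusted p it called 3.18% lower and 1.07% higher there. In GATA2-GMP edgeR called 0 of the 19 tested by genotype, and 4 had an unadjusted p under 0.05 (share over all genes not counted). DESeq2 called 3 higher in KO, Ddit3, Trib3 and Myc, where it called 2.23% of all genes with an adjusted p higher. Those named by DESeq2 were chosen after their values were seen.

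Promoters of the members other than Pmaip1 gave 14 windows, and Pmaip1 was not searched. These windows were searched on both strands for letters that GATA factors are known to bind (AGATAA or TGATAA or AGATAG or TGATAG). Also searched were the XBP1-type element (TGACGTGG), the composite element of CHOP (TGATGNAA) and letters bound by STAT factors (TTCNNNGAA). RefSeq windows of GRCm38.p6 were used, from 250 bases before to 50 bases after each start. The GATA letters occurred in 29.8% of all 32851 promoters and in 2 of the 14 windows, 1 of Bcl2l1 and 1 of Bid. The other motifs occurred in 0.676%, 3.97% and 8.3% of all promoters and in none of the 14 windows. Both windows with GATA letters are shown, 5′ to 3′ on the gene's strand with the matches in capitals, because the later stage was made by adding a GATA factor.
Bcl2l1 (GRCm38.p6 chr2:152828440-152828739, minus strand): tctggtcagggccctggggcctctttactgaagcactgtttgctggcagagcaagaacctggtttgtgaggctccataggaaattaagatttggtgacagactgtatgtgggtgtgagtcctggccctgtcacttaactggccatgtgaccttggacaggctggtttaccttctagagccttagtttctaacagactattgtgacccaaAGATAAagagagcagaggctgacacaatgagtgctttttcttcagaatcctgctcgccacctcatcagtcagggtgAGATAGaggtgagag
Bid (GRCm38.p6 chr6:120916775-120917074, minus strand): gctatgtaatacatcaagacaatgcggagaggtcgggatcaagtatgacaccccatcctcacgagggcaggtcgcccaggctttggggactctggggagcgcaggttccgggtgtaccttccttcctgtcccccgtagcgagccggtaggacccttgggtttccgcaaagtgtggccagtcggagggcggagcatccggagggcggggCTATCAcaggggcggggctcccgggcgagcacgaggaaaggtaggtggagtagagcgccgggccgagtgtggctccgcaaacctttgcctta
The Bcl2l1 window holds 2 matches and the Bid window 1, on the opposite strand. A match is a run of letters and not a binding site, and nothing on binding was measured.

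The members with the smallest unadjusted p by genotype were Bak1, Bcl2l1 and Mcl1, and the genes most like each were found by the root mean square (RMS) difference of log2 CPM, centred on the gene's mean, over the 12 libraries and 12802 other genes. Among the genes most like Bak1 were Spr (RMS 0.219) and Zmynd19 (0.327), where the median gene differed by 2.05. Bcl2l1 was most like Tlr2 (0.189), Glb1 (0.196) and Cat (0.201), with a median of 1.30 over all genes. Mcl1 was most like Lmbrd2 (0.141), Zbtb1 (0.156) and Epm2aip1 (0.158), with a median of 0.904. The 12 libraries divide by stage, culture and kit together, and the measure does not separate these.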

How the data were processed

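The authors deposited unnormalized read counts for each gene symbol, with a file for each library (the values are whole numbers and totals differ). Per the submitters' processing notes, the build was mm9 and the tools were HTSeq, DESeq, SAMtools 0.1.14 and STAR 2.3.0, with no roles given; annotation, filters and strand setting are not given in the sources used here. Rows for reads of no gene held 55.8 to 66.5% of records and were set aside. Spreadsheet dates had replaced 27 symbols in GMP files; 23 were restored and 4 ambiguous ones left out, none of them a member. No library repeated another.

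Here, edgeR 4.0.16 in R 4.3.3 was used: filterByExpr, TMM, estimateDisp, robust glmQLFit and glmQLFTest on the libraries of each comparison, with Benjamini-Hochberg adjustment across the tested genes at a threshold of 0.05; every adjusted p is from edgeR unless DESeq2 (1.42.0) is named. SE is the log2 fold change over the square root of F. CPM were scaled over all 12 libraries, so ratios of CPM can differ from fitted folds. Intervals are 95% and assume the fitted spread.

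Same-numbered libraries deviated together in GMP (correlations across genes of 0.318, 0.249 and 0.192) and not in GATA2-GMP (-0.16, -0.314 and -0.486) or between stages (-0.051 to 0.045). All results are from fits without a block; in GMP the fit with the number as a block is given beside them where it changes a call. All members are named; of each list, at most the 4 called genes with the largest change in a comparison, besides Ddit3, Trp53 and Xbp1. The members, lists and tests were chosen with earlier results of these data known. GENCODE vM1 on NCBIM37 gave positions and exon lengths. Alternatives were other scalings, no filter, DESeq2, robust=FALSE, a replicate block, 1 fit over all libraries and leaving out each library. A likeness value and a marker value are not reported here.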

Additional observations from a re-analysis of the deposited data

How the results depend on the processing

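Between GATA2-GMP and GMP, 8 to 10 members were called in WT and 9 to 10 in KO when 1 library was left out (genes called: 7621 to 9826 and 9026 to 10669). With library totals the log2 fold change turned sign for Bax (-0.071 in KO, -0.22 in WT), Birc2 (-0.0086 in KO), Trp53 (-0.0145 in WT) and Naip6 (-0.063 in WT); for Bax it was -0.10 in WT with the replicate block and ran from -0.88 to 1.02 without 1 library. The pro-survival minus effector difference between the stages was 2.80 in KO and 2.49 in WT with a prior count of 0.5, beside 2.18 and 1.87.

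By genotype in GATA2-GMP the members called were 1 without the filter, 2 with DESeq2, 2 with all 12 libraries in 1 fit and 0 without any library; genes called were 294, 567, 1461, 3 with the replicate block and 0 to 525 without 1 library (525 without WT 3), beside 44. Without 1 library the log2 fold change ran from -0.40 to 1.67 for Bax, -0.061 to 0.46 for Bcl2l11 and -0.81 to 0.29 for Pmaip1. In GMP 1 member was called with library totals, without the filter and with the replicate block (each time Bcl2l1), and 0 to 1 without 1 library; genes called were 964 with the block, 17 with all 12 libraries in 1 fit and 209 to 398 without 1 library (209 without KO 3, 237 without WT 3), beside 381. There the ranges were -0.076 to 0.51 for Bbc3, -0.21 to 0.43 for Pmaip1, -0.28 to 0.032 for Bcl2 and -0.19 to 0.12 for Ddit3.

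For the difference between the stages 1 member (Bak1) was called without the filter and with DESeq2, and 0 to 1 without 1 library; genes called were 17 with DESeq2 size factors, 40 without the filter, 794 with DESeq2, 18 with robust=FALSE, 0 with the block and 0 to 1179 without 1 library (1179 without GATA2-GMP WT 3), beside 11. Bax and Bcl2l11 turned to 0.15 and 0.13 with library totals and 0.61 and 0.0226 with the block; without 1 library the ranges were -0.53 to 1.54 for Bax, -0.24 to 0.28 for Bcl2l11, -0.95 to 0.15 for Pmaip1 and -0.44 to 0.029 for Xbp1. In GMP the block changed the call of no member but Bcl2l1. The causes were not tested. Of the members' values under other settings, 618 kept direction and side of the threshold, 15 gained and 8 lost a call, and 28 changed sign. Depth limits Bok and Bbc3 most.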
